A study of Mus musculus with 9 samples.

Results

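The 7 genes Neurog1, Neurod2, Neurod4, Neurod6, Atoh7, Olig1 and Olig2, which encode transcription factors of the basic helix-loop-helix (bHLH) class that set neuronal or glial fate, were followed in retinas of mice that lacked Rb or both Rb and p107. They were taken by name from the platform annotation, and all 7 were measured, each by 1 probe set, among 24259 genes in all. Retinas were collected at postnatal day 8 (P8) from 3 genotypes on a C57Bl/6x129SvJ background: mice without Rb and p107 (Rb/p107 DKO, shortened to DKO), mice without Rb (Rb KO) and wild-type mice (WT). Each genotype had 3 arrays, which the series calls biological replicates, 9 arrays in all. The labels name the knockouts by gene alone: they do not state the driver of the deletion, the share of retinal cells that carry it, or the age at which it takes place. RNA of whole retinas was read on a whole-transcript Affymetrix array, and the values are log2 intensities, so a difference of 1 is a 2-fold difference in intensity.

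Proneural bHLH factors bind DNA as dimers with the widely expressed E proteins, at the hexamer called an E-box, and drive progenitor cells to leave the cycle and become neurons. Id proteins take up the E proteins, and Hes and Hey factors, which act under Notch, repress proneural genes. In the mouse retina Atoh7 is needed for ganglion cells, Neurod4 acts with other factors in making amacrine and bipolar cells, Neurod2 and Neurod6 mark or specify subsets of amacrine cells, and Olig2 is present in progenitors near their last divisions. Olig1 and Olig2 are otherwise known from oligodendrocytes, and Neurog1 from cranial sensory neurons and the olfactory epithelium. Rb and p107 are pocket proteins that hold back E2F factors and so the genes of S phase. At P8 most neurons of a WT mouse retina have left the cell cycle.

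The start regions of the 3 genes that passed the threshold between DKO and Rb KO retinas (adjusted p under 0.05) are shown first. Each window runs from 250 bases before to 50 bases after the annotated start, 5′ to 3′ in the direction of the gene (RefSeq, GRCm38.p6), and E-boxes, written CANNTG, are in capitals.
Olig2 (chr16:91225300-91225599, plus strand): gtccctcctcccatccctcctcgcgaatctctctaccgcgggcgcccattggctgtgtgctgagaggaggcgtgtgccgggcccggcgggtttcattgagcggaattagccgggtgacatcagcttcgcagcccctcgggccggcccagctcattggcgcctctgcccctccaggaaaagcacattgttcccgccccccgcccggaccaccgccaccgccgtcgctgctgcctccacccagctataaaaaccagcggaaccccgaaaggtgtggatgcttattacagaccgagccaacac
Neurog1 (chr13:56252131-56252430, minus strand): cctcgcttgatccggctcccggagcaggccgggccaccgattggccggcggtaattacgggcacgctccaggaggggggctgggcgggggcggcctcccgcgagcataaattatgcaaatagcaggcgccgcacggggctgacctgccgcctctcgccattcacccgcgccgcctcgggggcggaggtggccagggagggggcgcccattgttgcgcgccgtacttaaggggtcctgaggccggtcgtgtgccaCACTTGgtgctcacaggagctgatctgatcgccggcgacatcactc
Neurod6 (chr6:55681214-55681513, minus strand): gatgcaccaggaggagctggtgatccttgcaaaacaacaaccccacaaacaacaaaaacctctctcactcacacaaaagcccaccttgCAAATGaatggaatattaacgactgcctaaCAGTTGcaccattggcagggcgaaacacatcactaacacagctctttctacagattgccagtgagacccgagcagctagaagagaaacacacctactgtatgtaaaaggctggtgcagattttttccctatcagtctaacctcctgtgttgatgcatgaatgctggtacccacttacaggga
Olig2 held no E-box in its window, Neurog1 held 1, of the form CACTTG, and Neurod6 held 2, CAAATG and CAGTTG. An E-box, which reads as CANNTG on both strands, was found in 72.3% of 32851 mouse start regions of the same length. Neither TTTCCCGC nor TTTGGCGC, 2 spellings of the E2F site, was found on either strand in the start region of any member, against 1.56% of all start regions. Only these exact spellings of the E2F site were sought. The Olig2 window holds both without their first T, a shorter form whose share over all start regions was not counted. These matches describe letters only. Of the 7 members 6 were matched in the sequence table, and Olig1 was not among them. Olig1 and Olig2 are next to each other on chromosome 16, with no other protein-coding gene of the annotation between them.

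Signal over background limits what can be read from these genes. On each array the 95th percentile of 5222 negative control probe sets, called the control level below, lay between 7.94 and 8.50, and between 27.2% and 36.4% of genes lay above it. A gene is called above background in a genotype when at least 1 of its 3 arrays lies above the control level. Rb1, the targeted gene, had 3 probe sets, and the brightest read 9.74, 10.001 and 9.85 in DKO arrays and 9.85, 10.02 and 9.86 in Rb KO arrays, against 10.005, 10.19 and 10.46 in WT arrays. The other 2 were below the control level in every array, and the dimmest read higher in the mutants, 6.01 to 6.30 in DKO and 5.61 to 6.33 in Rb KO, against 3.46 to 4.35 in WT. Which part of the transcript each reads was not determined, so these readings do not settle the labels. The gene of p107, Rbl1, was not analysed here. DKO replicate 2 stood apart from the other arrays in the sex-linked gene Xist (5.47, against 11.44 to 12.15) and in lens genes, whose 4 measured members averaged 9.71 in it and 6.91 to 7.99 elsewhere. Without it 6 members passed between DKO and WT, and 2 between the mutants.

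Most of the 7 genes read higher in both mutants. In limma fits across all genes, with Benjamini-Hochberg adjusted p under 0.05 as the threshold, 6 of 7 members rose in DKO against WT and none fell, where 29.3% of all genes passed, 12.2% as rising and 17.1% as falling. Rb KO against WT gave 5 rising members and none falling, where 24.4% of all genes passed, 10.2% as rising and 14.3% as falling. For DKO against Rb KO there were 3 rising members and none falling, where 2.54% of all genes passed, 1.34% as rising and 1.21% as falling. Some of these member calls compare background readings. Neurod6 and Atoh7 were above background in no array, Neurod2 in 1 DKO array only, and Neurog1 in DKO alone. In Rb KO against WT only Olig2 and Neurod4 rose with Rb KO above background. In a test of any difference among the 3 genotypes, which 28.7% of all genes passed, 5 of 7 members passed, all but Atoh7 (adjusted p = 0.0629) and Olig1 (adjusted p = 0.67). The median log2 difference of the 7 was 0.79 for DKO and 0.70 for Rb KO against WT, and 0.245 between the mutants, beside -0.06, -0.05 and -0.00254 over all genes. The median between the mutants is the value of Atoh7, which was not above background, and it was 0.122 without DKO replicate 3, 0.173 without Rb KO replicate 3 and 0.517 without DKO replicate 2. The mutant comparisons share the WT arrays. In 6 of 7 members no WT array reached the lowest array of either mutant, and non-overlap in that direction was found for 17.4% of all genes in DKO and 14.3% in Rb KO. No member lay wholly below WT, which 26.5% of all genes did in DKO and 21.5% in Rb KO. All DKO arrays lay above all Rb KO arrays for 3 members and for 11.3% of all genes. As the RNA came from whole retinas, more cells that express a gene and more RNA per cell cannot be told apart.

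**Figure D1:**
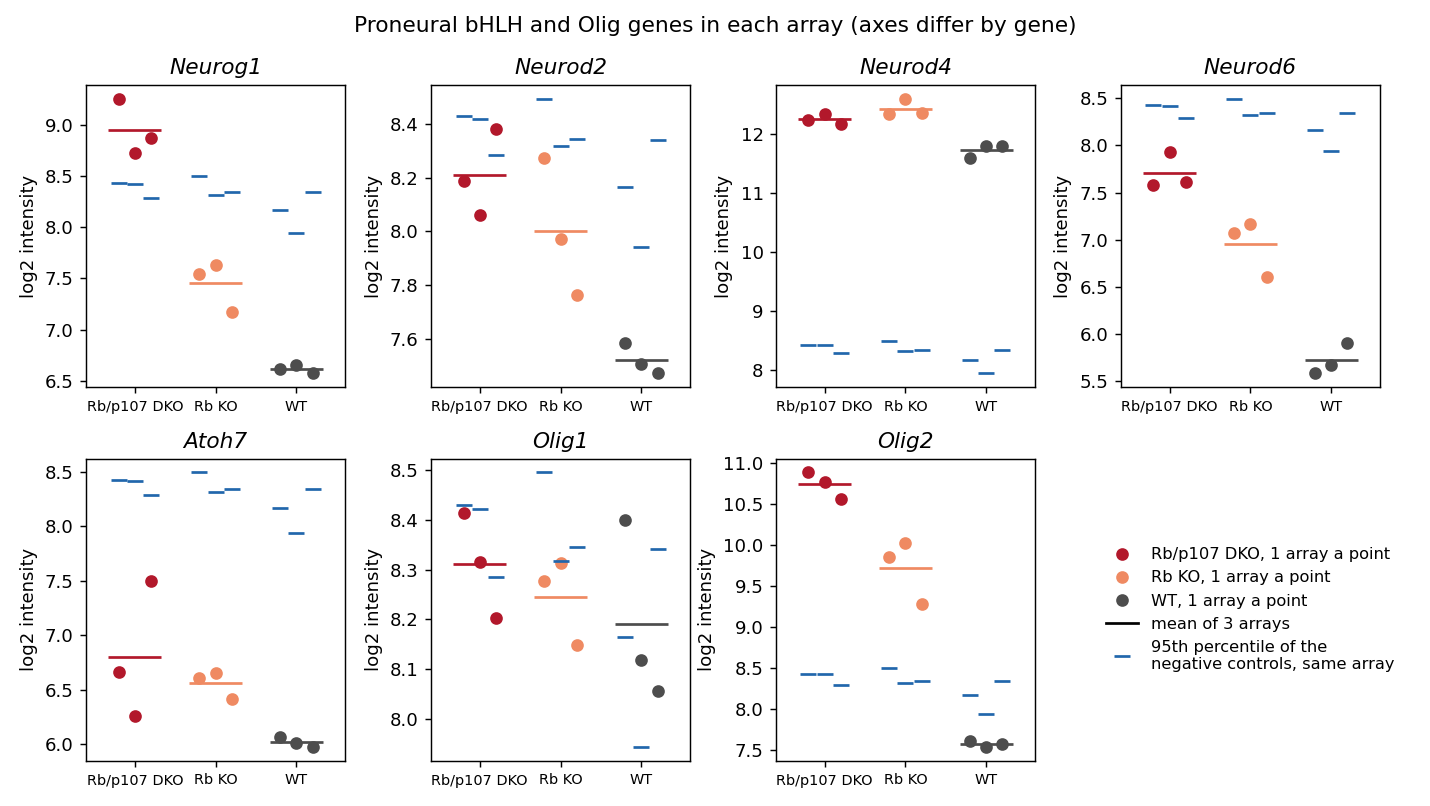
Log2 intensity of the 7 genes (vertical axes, different for each gene) in each array, grouped as Rb/p107 DKO, Rb KO and WT, with horizontal lines at the mean of 3 arrays and blue ticks at the 95th percentile of the negative controls of the same array. Olig2 and Neurog1 step up from WT through Rb KO to DKO, Neurod4 is far above the ticks throughout, and Neurod6 and Atoh7 stay below them in all 9 arrays.

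Olig2 had the largest fitted difference of the 7 from WT in both mutants. It read 10.89, 10.77 and 10.57 in DKO arrays, 9.86, 10.02 and 9.28 in Rb KO arrays, and 7.61, 7.53 and 7.57 in WT arrays. The 3 genotypes did not overlap, and every WT array was below its control level while every mutant array was above it. The fitted log2 difference was 3.17 in DKO against WT (SE 0.163, adjusted p = 2.44e-07) and 2.15 in Rb KO against WT (SE 0.163, adjusted p = 7.39e-06). Because WT was not above background, the measured sizes are bounds: at least 6.03-fold higher in DKO and at least 2.96-fold higher in Rb KO. These bounds set the mean of the mutant against the mean, over WT arrays, of the control level, and leave out the spread between arrays. Both mutants were above background, so the step between them was measured: Olig2 was 2.04-fold higher in DKO than in Rb KO (log2 difference 1.03, 95% confidence interval 0.67 to 1.38, adjusted p = 0.00814). It was 1.01 without DKO replicate 2 (adjusted p = 0.0248).

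Olig1, its neighbour on the chromosome, passed in no comparison. Olig1 read 8.41, 8.32 and 8.20 in DKO arrays, 8.28, 8.31 and 8.15 in Rb KO arrays, and 8.40, 8.12 and 8.06 in WT arrays, so the 3 genotypes overlapped. The log2 difference was 0.12 in DKO against WT (95% interval -0.10 to 0.34, adjusted p = 0.42), 0.05 in Rb KO against WT (-0.17 to 0.28, adjusted p = 0.756) and 0.07 in DKO against Rb KO (-0.16 to 0.29, adjusted p = 0.903). Its readings were within 0.3 of the control level of their arrays and above it only in WT replicates 1 and 2, so a small change in an RNA this dim was not measurable. The intervals for Olig1 in both mutants lie wholly below those for Olig2, which run from 2.81 to 3.53 in DKO and from 1.79 to 2.51 in Rb KO. The difference between the 2 genes was not itself tested. On the other side of Olig2, the neighbour 4932438H23Rik was not above background in any array and did not pass in any comparison.

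Other genes of the oligodendrocyte lineage were near or below background. Of 18 listed genes of that lineage 11 were measured. Sox10, which marks the lineage throughout, read 6.92 to 7.04 in DKO arrays, 6.94 to 7.08 in Rb KO arrays and 7.01 to 7.26 in WT arrays, below the control level everywhere. The myelin genes Mbp, Mog, Mag, Mobp and Opalin were likewise not above it in any array, and Cnp was above it in 1 WT array only. None of the 11 rose in either mutant, and 1 fell, Myrf in DKO (-0.29, adjusted p = 0.0126), a difference between background readings. The median log2 difference of the list was -0.10 in DKO and -0.06 in Rb KO. The mean reading over the 11 genes was 6.29 to 6.38 in DKO, 6.35 to 6.46 in Rb KO and 6.37 to 6.49 in WT.

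Neurog1 was above background in DKO alone. It read 9.25, 8.73 and 8.87 in DKO arrays, 7.55, 7.63 and 7.18 in Rb KO arrays, and 6.62, 6.65 and 6.57 in WT arrays. All 3 DKO arrays were above the control level and no Rb KO or WT array was. The log2 difference was 2.34 in DKO against WT (SE 0.143, adjusted p = 1.04e-06), with a bound of at least 1.74-fold higher. Between DKO and Rb KO it was 1.498 (SE 0.143, adjusted p = 2.74e-04), with a bound of at least 1.48-fold higher. Neurog1 also passed in Rb KO against WT (0.84, SE 0.143, adjusted p = 0.00173), but both groups were background readings, so the size of that difference was not measured. Set among the negative controls of the same array, Neurog1 stood above 96.5% to 97.9% of them in DKO, above 81.8% to 89.2% in Rb KO and above 68.6% to 77.5% in WT. Of its flanking genes, Tifab was not above background in any array and passed in no comparison. Cxcl14 fell in Rb KO (-0.69, adjusted p = 0.00251) and did not pass in DKO (-0.19, adjusted p = 0.297).

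Atoh7, the ganglion cell determinant, gave no measurable level. It read 6.66, 6.26 and 7.50 in DKO arrays, 6.61, 6.65 and 6.42 in Rb KO arrays, and 6.07, 6.01 and 5.97 in WT arrays, all below the control level. No WT array reached the lowest mutant array, and DKO replicate 3 was the highest of the 9, while the other DKO arrays lay close to or below those of Rb KO. Atoh7 passed in DKO against WT (log2 difference 0.79, SE 0.236, adjusted p = 0.0284) and not in Rb KO against WT (0.54, SE 0.236, adjusted p = 0.125). Without DKO replicate 3 the DKO difference was 0.44 (adjusted p = 0.0299), and the Rb KO difference then passed too (0.54, adjusted p = 0.00701). The DKO call ended without WT replicate 1, 2 or 3 (adjusted p = 0.0599, 0.0533 and 0.0729). DKO against Rb KO gave 0.24 (95% interval -0.28 to 0.77, adjusted p = 0.792). Without DKO replicate 2, the lowest DKO array, DKO differed by 1.059 from WT (adjusted p = 0.00317) and by 0.517 from Rb KO. Next to Atoh7, Mypn fell in DKO (-0.27, adjusted p = 0.0119) and Rb KO (-0.30, adjusted p = 0.00929), and Pbld1 did not pass. Neither neighbour was above background in any array.

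Neurod4 was bright in every array and rose modestly in both mutants. It read 12.24, 12.35 and 12.18 in DKO arrays, 12.34, 12.6 and 12.36 in Rb KO arrays, and 11.59, 11.8 and 11.8 in WT arrays. Every mutant array was above every WT array. Neurod4 was 1.44-fold higher in DKO than in WT (log2 difference 0.53, SE 0.0962, adjusted p = 0.00201) and 1.63-fold higher in Rb KO than in WT (0.70, SE 0.0962, adjusted p = 4.34e-04). These are measured sizes, as all 9 arrays were above background. The 2 mutants overlapped, with a difference of -0.18 in DKO against Rb KO (95% interval -0.39 to 0.04, adjusted p = 0.49). The adjacent genes Olfr827 and Tespa1 were not above background and did not pass.

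Neurod6, which marks a subset of amacrine cells, differed in all 3 comparisons but below the control level. It read 7.58, 7.93 and 7.61 in DKO arrays, 7.07, 7.17 and 6.61 in Rb KO arrays, and 5.58, 5.67 and 5.91 in WT arrays. The genotypes did not overlap, yet no array was above background, so no size was measured. The differences between these readings were 1.98 in DKO against WT (SE 0.152, adjusted p = 5.41e-06), 1.23 in Rb KO against WT (SE 0.152, adjusted p = 2.25e-04) and 0.76 in DKO against Rb KO (SE 0.152, adjusted p = 0.0294). The last call ended when 1 array was left out, be it Rb KO replicate 1 (adjusted p = 0.0722), Rb KO replicate 3 (0.0771) or DKO replicate 1, 2 or 3 (0.0592, 0.0826 and 0.076). Neurod6 stood above 87.0% to 91.2% of the negative controls of its array in DKO, above 70.5% to 82.3% in Rb KO and above 51.6% to 53.8% in WT. Its neighbour Itprid1 fell in DKO (-0.36, adjusted p = 0.0333) and Rb KO (-0.46, adjusted p = 0.0116), and Adcyap1r1 on the other side did not pass. Both were at background in all arrays.

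Neurod2 lay near the control level. It read 8.19, 8.06 and 8.38 in DKO arrays, 8.27, 7.97 and 7.76 in Rb KO arrays, and 7.585, 7.51 and 7.47 in WT arrays, and only DKO replicate 3 was above background. It passed in DKO against WT (log2 difference 0.69, SE 0.125, adjusted p = 0.00191) and in Rb KO against WT (0.48, SE 0.125, adjusted p = 0.017). DKO counts as above background through replicate 3 alone, with 2 of 3 arrays at background. The bound in DKO against WT is at least 1.04-fold higher. All Rb KO and WT arrays were at background, so the size of their difference was not measured. The Rb KO call ended without WT replicate 3 (adjusted p = 0.0507) or Rb KO replicate 1 (adjusted p = 0.0557). The mutants overlapped and differed by 0.21 in DKO against Rb KO (95% interval -0.07 to 0.48, adjusted p = 0.559).

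**Figure D2:**
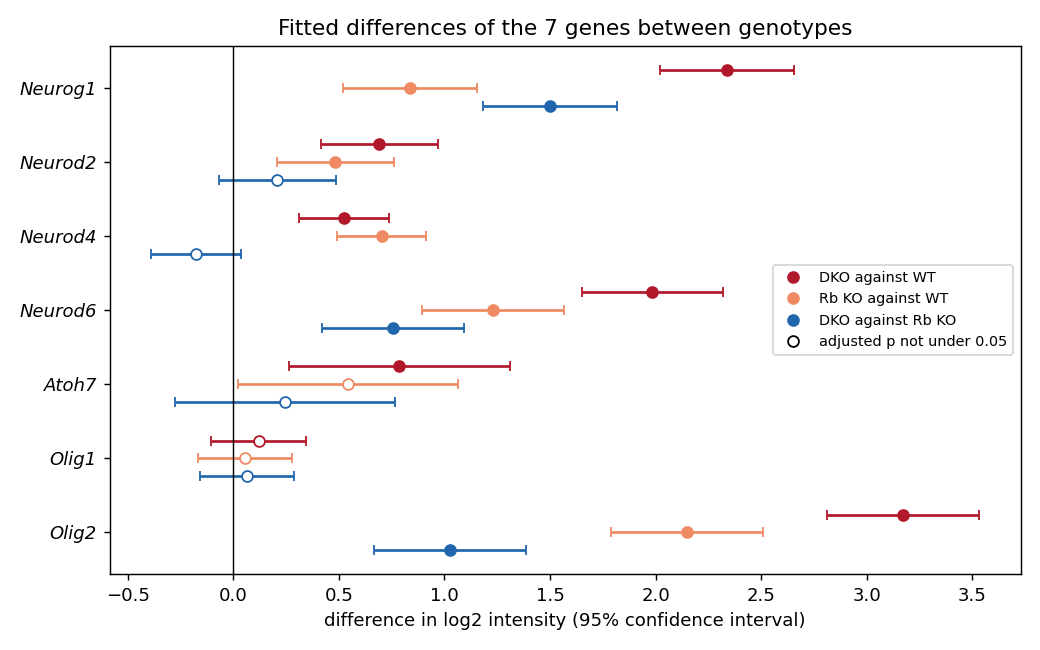
Fitted differences in log2 intensity (horizontal axis) with 95% confidence intervals for each gene in DKO against WT, Rb KO against WT and DKO against Rb KO, filled where the adjusted p was under 0.05. Olig2 reaches 3.17 in DKO and 2.15 in Rb KO, while the 3 intervals of Olig1 all include 0.

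The members can be set side by side by the steps that passed, though differences between members were not tested. For Olig2, Neurog1 and Neurod6 DKO lay above Rb KO and Rb KO above WT, each step past the threshold. Of these steps only that of Olig2 between the mutants had both groups above background. Neurog1 was above it in DKO alone and Neurod6 in no array, and the Neurod6 call between the mutants depended on single arrays. Both mutants lay above WT for Neurod4 and Neurod2, and their difference from each other did not pass. The mean of Neurod2 was also highest in DKO (8.21), then Rb KO (8.00) and WT (7.52), and its interval for DKO against Rb KO overlapped that of Neurod6 (0.42 to 1.09). The means of Atoh7 (6.80, 6.56 and 6.02) and Olig1 (8.31, 8.25 and 8.19) had the same order. Their differences between the mutants did not pass. Within Rb KO, replicate 3 gave the lowest reading for 6 of 7 members, Neurod4 being the exception. The same array had the lowest mean over 9 genes of cycling cells (10.065, against 10.33 and 10.5 in the other Rb KO arrays) and the highest mean over 6 rod genes (11.36, against 10.68 and 10.39). The part of that array-wide difference in the members was not tested. Without it Olig2 differed by 2.37 in Rb KO against WT and by 0.80 in DKO against Rb KO (adjusted p = 0.00636), and Neurog1 by 0.98 and 1.36.

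The dimer partners of the 7 factors rose as well. All 3 genes of E proteins were above background in all 9 arrays and rose in both mutants, by 0.85 in DKO and 0.88 in Rb KO for Tcf3 (adjusted p = 3.61e-04 and 4.02e-04), by 1.16 and 0.81 for Tcf4 (adjusted p = 1.31e-05 and 2.03e-04), and by 0.40 and 0.44 for Tcf12 (adjusted p = 0.00288 and 0.00213). None passed in DKO against Rb KO.

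Their antagonists moved both ways. Of 10 listed Id, Hes and Hey genes 7 were measured: 4 were up and 1 down past the threshold in DKO, and 5 up and 1 down in Rb KO, with medians of 0.48 and 0.40. Heyl, counted among the rises in both mutants, was not above background in any array. Hes5, a Notch target of progenitors, rose by 0.98 in DKO (SE 0.136, adjusted p = 3.44e-04) and by 0.68 in Rb KO (adjusted p = 0.00438). Hey2 rose by 0.96 in DKO (adjusted p = 2.13e-05) and 0.57 in Rb KO (adjusted p = 9.69e-04), and the mutants differed by 0.39 (adjusted p = 0.0441). Hes1, another repressor of proneural genes, had the opposite order. It read 9.04, 8.82 and 8.74 in DKO arrays, 9.22, 9.5 and 9.4 in Rb KO arrays, and 8.66, 8.72 and 8.48 in WT arrays. It rose in Rb KO (0.75, adjusted p = 5.17e-04), did not pass in DKO (0.25, adjusted p = 0.103), and was lower in DKO than in Rb KO (-0.50, adjusted p = 0.034). Id4 was the fall, by 0.37 in DKO and 0.51 in Rb KO, and Id2 rose by 0.48 and 0.40.

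No other bHLH gene on the list rose against WT. Of 14 listed genes 6 were measured, none rose and 2 fell in DKO (Neurog3 and Bhlhe41) and in Rb KO (Bhlhe40 and Bhlhe41). Olig3, Neurog3, Atoh1 and Ascl2, relatives of the members, were not above background in any array and read 5.85 to 6.62 in DKO, 5.9 to 6.68 in Rb KO and 5.83 to 6.78 in WT. Bhlhe41, a clock-linked repressor expressed in WT above background, fell by 1.003 in DKO and by 1.15 in Rb KO (adjusted p = 8.96e-05 and 4.97e-05). It was not above background in either mutant, so the measured falls are at least 0.71 and 0.70 on the log2 scale. Bhlhe40, its close relative, was lower in Rb KO than in both others: it did not pass in DKO against WT (0.25, adjusted p = 0.262), and DKO was above Rb KO (0.90, adjusted p = 0.0124). No Rb KO array was above background for it, so the measured difference is at least 0.32 on the log2 scale for DKO over Rb KO and at least 0.07 for WT over Rb KO. Neurod1, Neurog2 and Ptf1a were not analysed here.

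**Figure D3:**
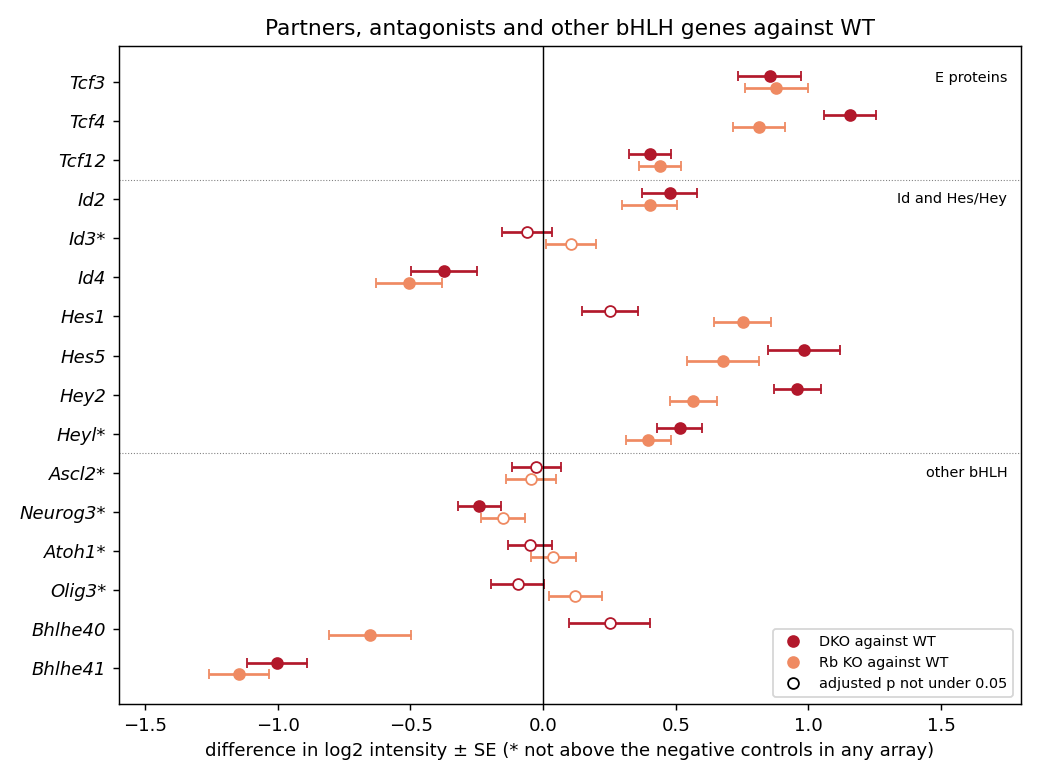
Difference in log2 intensity from WT (horizontal axis, ± SE) of E protein, Id, Hes, Hey and other bHLH genes in DKO and Rb KO, filled where the adjusted p was under 0.05 and starred where no array was above the negative control level. The 3 E protein genes lie between 0.40 and 1.16, and Bhlhe41 lies at -1.003 and -1.15.

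The profiles nearest to the members were found among 7489 genes above background, by the root mean square difference over 9 arrays after each gene was centred on its mean. For Olig2 the nearest were Sox11 (0.17), Cdc25c (0.22) and Cdc20 (0.24). Sox11, a factor of newborn neurons, read 11.46, 11.42 and 11.49 in DKO arrays, 10.91, 11.07 and 10.19 in Rb KO arrays, and 8.27, 8.43 and 8.25 in WT arrays. Its DKO arrays were all above its Rb KO arrays, but that difference did not pass (0.74, adjusted p = 0.0637). Cdc25c and Cdc20 act in mitosis. For Neurog1 the nearest were Rnu11 (0.23), the U11 RNA of the minor spliceosome, Adgrg1 (0.28) and Pou3f2 (0.30), a neural POU factor. For Neurod4 they were Arid2 (0.07), Neo1 (0.07) and Ints6l (0.07), for Neurod2 Dctpp1 (0.08), Six3 (0.09) and Ftl1 (0.09), and for Olig1, which varied little, Rps15-ps2 (0.07), Bccip (0.07) and Ppp1r8 (0.07). Neurod6 and Atoh7 were not above background and were not matched. All 9 points of a profile come from the same arrays, so likeness rests mostly on the genotype means. Olig2, Neurog1, Cdc25c, Cdc20 and Pou3f2 were below the control level in every WT array and counted as above background through mutant arrays alone. Their likeness in WT compares background readings. Neurod2 was above the control level in DKO replicate 3 alone, so its matches rest on background readings of Neurod2 in all other arrays.

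**Figure D4:**
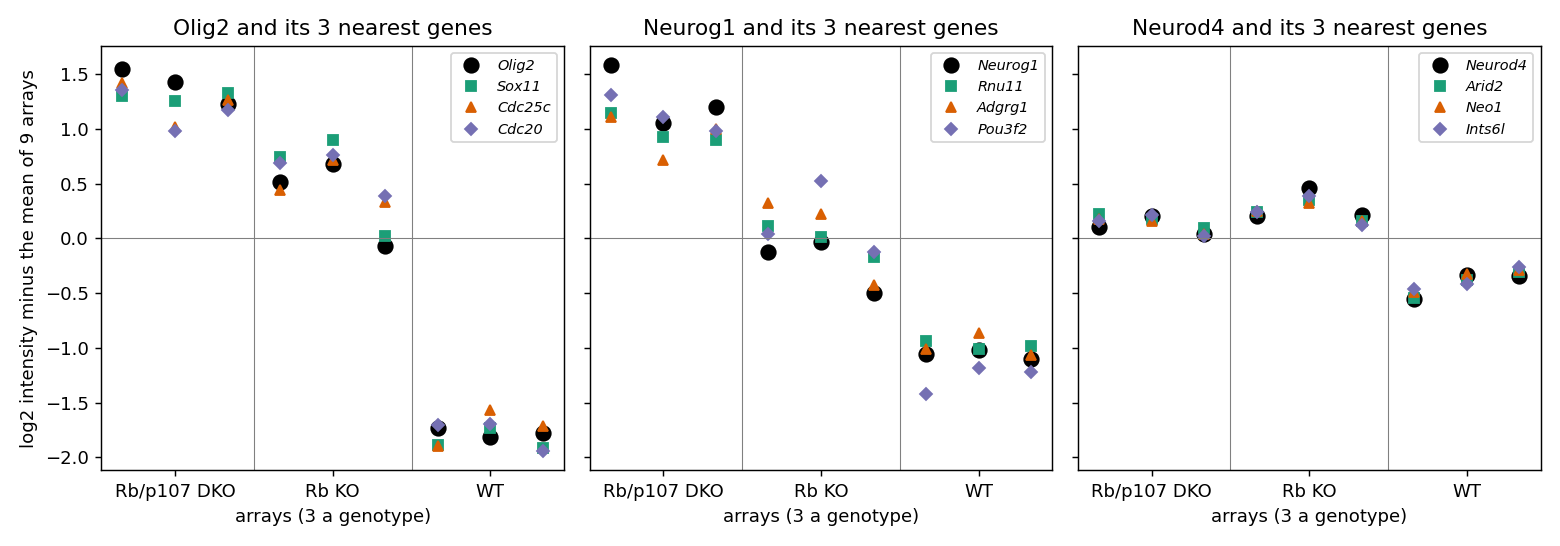
Log2 intensity minus the mean of 9 arrays (vertical axis) for Olig2, Neurog1 and Neurod4 and the 3 genes nearest to each, by array and genotype (horizontal axis). Sox11 follows Olig2 with a root mean square difference of 0.17, and Rb KO replicate 3 is the lowest Rb KO array for Olig2 and the 3 genes nearest to it.

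Genes of the states in which proneural factors act rose in part. Of 15 listed genes of neurogenic precursors 11 were measured: 7 were up and 2 down past the threshold in DKO, and 7 up and 1 down in Rb KO, with medians of 0.71 and 0.49. These rises include Dll3 in both mutants, which was not above background in any array. Sox11 rose by 3.14 in DKO and 2.40 in Rb KO, and Sox4 by 1.18 and 1.12. Dll1, the Notch ligand that proneural factors induce, rose by 1.02 in DKO (adjusted p = 0.00147) and 0.99 in Rb KO (adjusted p = 0.00227). Igfbpl1 passed in both (1.48 in DKO and 0.87 in Rb KO) but was above background in DKO alone. Gadd45a fell, by 0.61 and 0.51. Cycling cell genes rose in 9 of 9 measured cases in both mutants (medians 3.08 and 2.85), and their mean per array was 10.34 to 10.59 in DKO, 10.065 to 10.5 in Rb KO and 6.91 to 7.185 in WT. The part of these cells in the members' values was not tested.

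Of the neuron types that the members specify, ganglion and bipolar cell genes were for the most part lower, and amacrine genes moved both ways. Of 12 measured ganglion cell genes, 7 fell and 3 rose in DKO and 8 fell and 2 rose in Rb KO, with medians of -0.61 and -0.52. Sncg fell by 0.84 and 0.81, while Ebf3 and Ebf1, which amacrine cells also use, rose by 1.16 and 0.84 in DKO and by 1.02 and 0.76 in Rb KO. Bipolar genes fell in 11 of 14 cases and 1 rose in each mutant (medians -1.27 and -1.22), among them Prkca of rod bipolar cells (-1.35 and -1.32). Of 16 listed amacrine genes 6 were measured, with 2 up and 3 down in each mutant. Barhl2, an amacrine and ganglion cell factor, rose by 1.70 in DKO and 1.20 in Rb KO. Tfap2a rose by 0.79 and 0.36, and Calb2 fell by 1.001 and 1.27. The other falls, Slc17a8 and Th, were not above background in any array, so only the fall of Calb2 was measured. Of 12 photoreceptor precursor and cone genes 8 fell and 1 rose in DKO, and 8 fell and 3 rose in Rb KO. Nrl, the determinant of rods, fell by 1.53 in DKO and 0.90 in Rb KO (adjusted p = 1.26e-05 and 6.22e-04). Prdm1, which favours photoreceptor over bipolar fate, rose in Rb KO (1.10, adjusted p = 1.29e-05), did not pass in DKO (0.22, adjusted p = 0.0933), and was lower in DKO than in Rb KO (-0.88, adjusted p = 4.68e-04). Astrocyte and Muller glia genes fell in 6 of 11 cases and rose in 2 in DKO, and fell in 7 and rose in 1 in Rb KO: Rlbp1 of Muller glia fell by 0.94 and 0.73, and Sox9 rose by 1.33 and 1.13. Of other cell types, 6 of 6 rod genes fell in both mutants (medians -1.42 and -1.23). Endothelial genes fell in 4 of 5 cases in DKO and 3 in Rb KO. Falls were called for 4 of 4 pigment epithelium genes in both mutants, and rises for 4 of 7 microglia genes in DKO and 5 in Rb KO. Only 2 of these 4 pigment epithelium genes and 3 of these 7 microglia genes were above background in any genotype. The same held for 11 of 12 ganglion cell genes and 8 of 11 astrocyte and Muller glia genes, so some calls compare background readings. Of 4 lens genes 2 rose in DKO and none in Rb KO (medians 1.45 and 0.22). Cryaa, a lens crystallin, read 9.20, 11.22 and 8.83 in DKO arrays, 7.91, 7.65 and 8.57 in Rb KO arrays and 7.74, 8.04 and 7.49 in WT arrays, so it was highest in DKO replicate 2 and above the other genotypes in all DKO arrays. Cryba1 had the same pattern, with 8.98, 11.20 and 8.41 in DKO arrays and at most 8.20 elsewhere. The part of these cell types in the members' values was not tested.

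**Figure D5:**
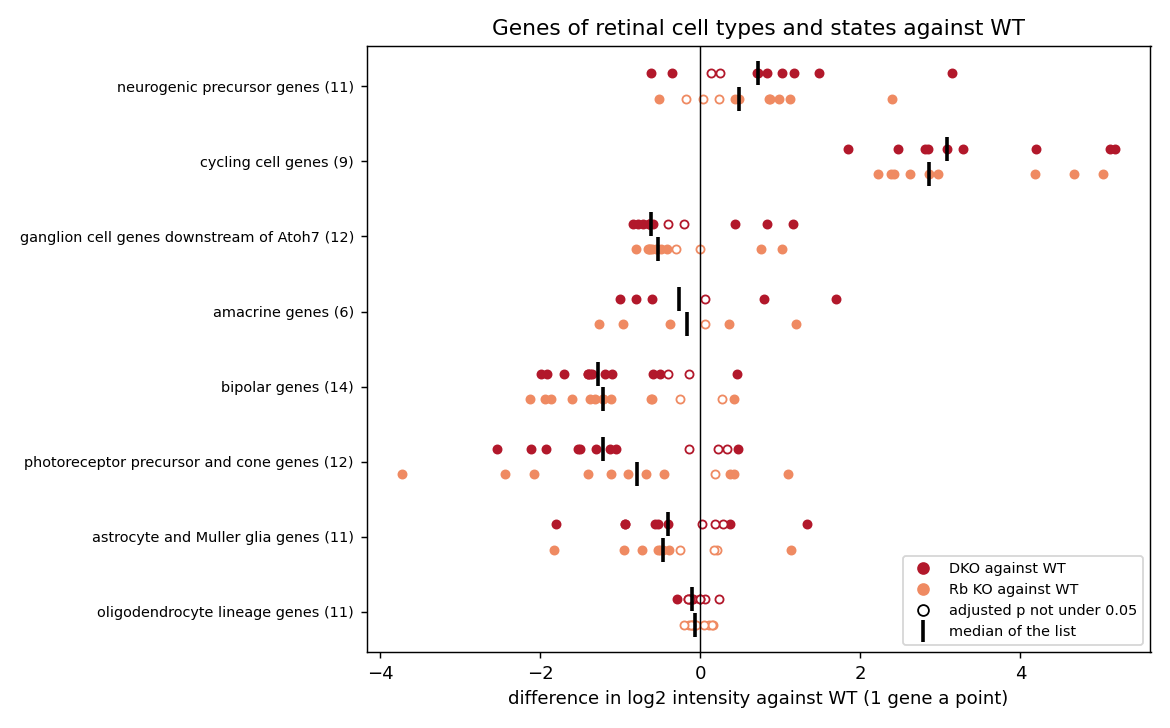
Difference in log2 intensity from WT (horizontal axis) of each measured gene in 8 lists (rows, with the number measured), in DKO and Rb KO, filled where the adjusted p was under 0.05, with black ticks at list medians. Cycling and precursor genes lie mostly to the right, bipolar genes mostly to the left, and the 11 oligodendrocyte genes close to 0.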

How the data were processed

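The authors deposited log2 intensities per probe set, made with the RMA method, which the submitters' processing notes name. Per the labels, RNA with an integrity score above 8 was used. The RMA software and the annotation's genome build are not given in the sources used here.

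Transcript clusters with 1 gene symbol (24646) gave 24259 genes, each read from its brightest probe set on average, with symbols updated through a RefSeq table of GRCm38.p6. Limma 3.58.1 (R 4.3.3) was fitted to 3 group means over all 9 arrays, with Benjamini-Hochberg adjustment over all genes and 6 residual and 4.69 prior degrees of freedom, and was tested on simulated data. Figures used matplotlib 3.10.9.

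The members and gene lists, and the level taken as background, were chosen with earlier results of these data known. Named genes were the members, up to 3 per list by lowest p and the 3 nearest profiles. Singled out after their values were seen were Sox10 and the myelin genes, the bHLH genes at background, Id2, Id4, Dll1, Dll3, Gadd45a, Slc17a8, Th, Xist and chromosomal neighbours of the members. Members were left out of list counts. Alternatives changed normalization, filter, probe sets, variance model, arrays, replicate block and a covariate of control separation. The number of arrays limits precision.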

Additional observations from a re-analysis of the deposited data

How the results depend on the processing

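Of 324 refits of the members, 308 kept their direction and their side of the threshold. In many of them the direction could not change, so this count is no measure of robustness. Each member had 1 probe set, so averaging probe sets returned the same log2 difference. So did the filter, the other variance model, the replicate block, the fit of only the 2 groups, and leaving out an array outside the comparison. The calls of Olig2, Neurog1 and Neurod4 were kept in all of their refits. In 12 a call was lost: Atoh7 in DKO against WT in 4 (with only the 2 groups compared, 0.79 at adjusted p = 0.0665), Neurod6 in DKO against Rb KO in 5, and Neurod2 in Rb KO against WT in 3 (with control separation as a covariate, 0.49 at adjusted p = 0.0695). In 2 Atoh7 in Rb KO against WT became a call (with only the 2 groups compared, adjusted p = 0.00341). In 2 a difference that had not passed changed sign: Olig1 in Rb KO against WT without WT replicate 3 (-0.01; over arrays left out, -0.0129 to 0.159) and Atoh7 in DKO against Rb KO without DKO replicate 3 (-0.10; over arrays left out, -0.101 to 0.517). The causes were not tested.

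Limiting the fit to genes above the control level in at least 3 arrays left 3 members called in each mutant (3 and 3), Neurog1, Neurod4 and Olig2, of which Neurog1 entered through its DKO arrays alone and Olig2 through mutant arrays alone, so this count is no support. It left 4330 genes called in DKO against WT and 4520 among the 3 groups, against 7113 and 6962, since fewer genes were tested. Leaving out 1 array gave 253 to 859 calls in DKO against Rb KO, against 617 (302 without Rb KO replicate 1, 300 without Rb KO replicate 3, 271 without DKO replicate 1 and 253 without DKO replicate 3). Renewed quantile normalization moved the median over all genes from -0.0522 to -0.00424 in Rb KO against WT. It moved from -0.0602 to -0.0116 in DKO against WT, and from -0.00254 to -0.00542 in DKO against Rb KO. Rising genes then made up 48.4%, 46.2% and 47.3% of the calls in these comparisons, against 41.6%, 41.6% and 52.5%. Deviations of arrays with the same replicate number correlated at -0.162 to 0.145, and 6 of 18 best matches were of the same number. The pairs of replicate 1 correlated at 0.145, 0.0809 and 0.114. With 3 arrays a group these values cannot decide whether some arrays were paired. With the replicate block 5453, 6666 and 501 genes were called in Rb KO against WT, DKO against WT and DKO against Rb KO, against 5923, 7113 and 617, and 5, 6 and 3 members, as without it.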
